A study of Mus musculus with 2 samples.

Results

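Integrins are adhesion receptors made of 1 alpha and 1 beta subunit, and the combination sets which matrix protein or cell surface partner is bound. Talin and kindlin proteins bind the beta tail inside the cell and switch the receptor on, while adaptors such as the parvins link it to actin. In embryonic blood formation, integrins hold endothelial cells on their basement membrane, and cells that leave the endothelium to become blood cells rely on other members of the family for homing and for platelet and leukocyte functions. Described here were the integrin subunit genes of yolk sac PK44 cells, namely 6 alpha genes (Itga1, Itga4, Itga5, Itga6, Itga9 and Itgav) and 4 beta genes (Itgb1, Itgb2, Itgb3 and Itgb5). They were taken by gene name, as 10 of the 23154 genes listed.

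In the GRCm38 mouse genome the genes lie on 8 chromosomes. Itga6 (chr2:71745616-71858416), Itga4 (chr2:79255426-79333123) and Itgav (chr2:83724397-83806916) share chromosome 2, all on the plus strand. Itgb1 spans chr8:128685654-128733200 on the plus strand with 16 exons in its principal transcript, and Itga5 chr15:103344286-103366763 on the minus strand with 30. The remaining genes are Itga9 (chr9:118606690-118901003, plus), Itga1 (chr13:114953096-115101964, minus), Itgb2 (chr10:77530252-77565708, plus), Itgb3 (chr11:104608000-104670476, plus) and Itgb5 (chr16:33829665-33949338, plus). The counts are per gene, so splice forms such as those of the cytoplasmic tails cannot be told apart.

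PK44 cells are the CD41-CD43-CD45-CD31+CD201+Kit+CD44+ cells of the mouse embryo, a gate designed to enrich hemogenic endothelial cells, the endothelial cells from which blood cells arise. Those of the E10.0 yolk sac of C57BL/6 background mice, with no treatment or engineered allele in the labels, were sorted and sequenced one by one with a modified STRT-seq protocol that counts unique molecular identifiers (UMIs) at the 3′ end of transcripts. There were 2 libraries, called replicate 1 and replicate 2, with 43 and 44 cells, and the labels gave neither separate litters nor a second condition. Cells of 1 library are not replicates, so levels were compared over the 2 libraries.

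Replicate 1 held 8932527 UMI counts with a median of 141577 per cell, and replicate 2 held 12706360 with a median of 238898, so shares of cells with a count were also given after every cell had been thinned to 20000 counts (86 of 87 cells). No cell number was shared by the libraries. All 7 endothelial and all 6 hemogenic markers examined had counts in both libraries, whereas of 12 macrophage markers 7 had counts and 5 (Cx3cr1, Adgre1, C1qa, C1qb and C1qc) were listed at 0 in every cell. The 7 were Mrc1 in 71 of 87 cells, Fcer1g in 49, Lyz2 in 34, Tyrobp in 29, Fcgr3 in 24, Csf1r in 4 and Ptprc in 3. There were 3 cells, 2 in replicate 1 and 1 in replicate 2, that held at least 100 counts of each of Col1a1, Col1a2, Col3a1 and Lum, genes of mesenchymal matrix, and results that rest on them are given with and without them.

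The most abundant subunit was Itgb1, the common beta partner of 5 of the alpha members and of Itgav. Its level in the summed counts of a library, scaled to a total of 1000000 counts (CPM), was 282.2 and 537.1 for replicates 1 and 2, a mean of 409.6 ± 180.2 CPM (SD, n = 2 libraries). It had a count in 84 of 87 cells, or 96.6% (exact 95% interval 90.3 to 99.3%, counting error only), and still in 74 of 86 cells after thinning. Among single cells it ran from 0 through a median of 209.0 to 1195 CPM in replicate 1, and from 35.1 through 508.3 to 1607 CPM in replicate 2. Every cell of replicate 2 held at least 10 Itgb1 counts, which was not so for any other member.

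The alpha subunits were led by Itga5, the fibronectin receptor subunit, and Itga6, a laminin receptor subunit. Itga5 was at 191.1 and 242.2 CPM in replicates 1 and 2 (mean 216.7 ± 36.2, SD, n = 2) and Itga6 at 175.2 and 222.7 CPM (199.0 ± 33.6, SD, n = 2), so that the gap between their means was smaller than the SD of either. Their spread over cells differed: Itga6 had a count in 39 of 43 and 43 of 44 cells, but Itga5 in 31 of 43 cells of replicate 1 and 44 of 44 of replicate 2. The median cell held 8.15 CPM of Itga5 in replicate 1 and 236.5 CPM in replicate 2. After thinning, Itga5 was seen in 17 of 42 and 37 of 44 cells, so the lower share in replicate 1 was present at equal depth as well. Together Itga5 and Itga6 made up 62.6% and 64.5% of the alpha counts of the members.

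Itga9, whose product pairs with beta1 and binds tenascin C and osteopontin, was next at 95.4 and 149.5 CPM (mean 122.4 ± 38.2, SD, n = 2), with a count in 74 of 87 cells. Itga4, whose product with beta1 binds fibronectin and Vcam1 and is used by blood progenitors for homing, was at 91.0 and 43.7 CPM (67.3 ± 33.5, SD, n = 2) with a count in 55 of 87 cells. Its counts were concentrated, since 3 cells held 42.0% of them. Vcam1 itself was listed at 0 in all 87 cells. That allows a share of up to 3.45% of cells with a count by a limit of 3 in 87 cells, and up to 4.15% by the exact 95% interval.

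Itgb3, the beta subunit of the platelet integrin and of a vitronectin receptor, was at 60.3 and 38.2 CPM (mean 49.3 ± 15.7, SD, n = 2). It had a count in 61 of 87 cells, more cells than Itga4 despite the lower level. This order was reversed after thinning, with Itgb3 in 22 of 86 cells and Itga4 in 27. Itgav, the alpha subunit of the vitronectin receptors, was at 20.4 and 30.7 CPM (25.5 ± 7.30, SD, n = 2) in 51 of 87 cells. The other three were carried by few cells. Itga1, a collagen receptor subunit, was at 12.1 and 31.7 CPM, and Itgb5, a partner of Itgav, at 26.8 and 13.9 CPM. Itgb2, the leukocyte beta subunit, was at 15.0 and 13.8 CPM. In replicate 1, 3 cells held 98.1% of the Itga1 counts, 99.2% of the Itgb5 counts and 95.5% of the Itgb2 counts, and for these genes a library level is the level of a few cells. A count was seen in 26 cells for Itga1, 23 for Itgb5 and 19 for Itgb2 of the 87.

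**Figure D1:**
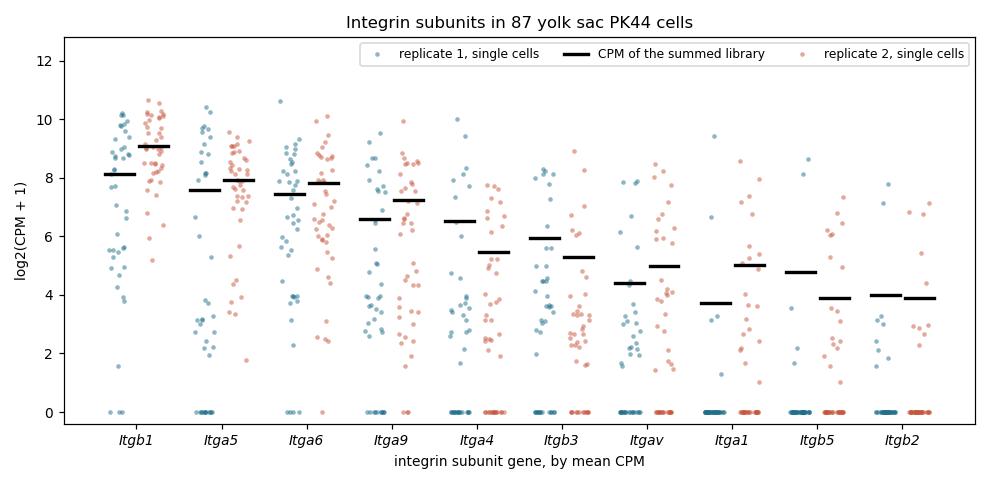
Level of each integrin subunit gene on the y axis, as log2(CPM + 1), for single cells of replicate 1 (blue points) and replicate 2 (red points), with the level of the summed library as a black bar. Itgb1, Itga5 and Itga6 have most cells well above 0, while for Itga1, Itgb5 and Itgb2 most cells lie at 0 and the bar is set by a few cells.

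The first 6 places in the order of levels were the same in both libraries, Itgb1, Itga5, Itga6, Itga9, Itga4 and Itgb3, and the places below them changed between libraries except that of Itgav. Between neighbours, Itga4 and Itgb3 differed by less than the SD of Itga4, and Itgav, Itga1, Itgb5 and Itgb2 did not separate beyond the larger SD of each neighbouring pair. With 3′ UMI counts a transcript gives 1 count whatever its length. Divided by transcript length, from 107.4 CPM per kb for Itgb1 to 2.00 CPM per kb for Itga1, the order of the first 4 was kept. Without the collagen-rich cells the mean level of Itgb5 was 14.0 in place of 20.3 CPM and that of Itgav 21.7 in place of 25.5 CPM, which put Itga1 before Itgav and Itgb5 last, while the first 6 places stayed. Between the libraries, Itgb1 was 1.90-fold and Itga1 2.62-fold higher in replicate 2, whereas Itga4 stood at 0.480 of its level in replicate 1. Over 6814 genes with a count in at least 10 cells, the 10th and 90th percentiles of the log2 ratio of replicate 2 to replicate 1 were -0.95 and 0.95, so Itga1 and Itga4, at 1.32 and -1.04, lay outside this range and the other 8 members inside it.

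**Figure D2:**
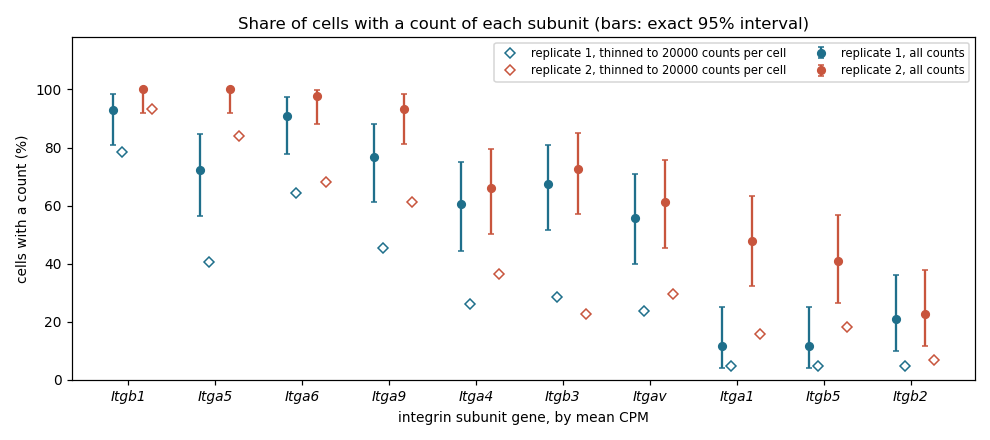
Share of cells with at least 1 count of each gene in percent, for replicate 1 (blue) and replicate 2 (red), with all counts as filled circles and exact 95% intervals, and after thinning to 20000 counts per cell as open diamonds. Itgb1 stays above 78% in both libraries after thinning, and Itga1, Itgb5 and Itgb2 fall below 20%.

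Of the other 16 integrin subunit genes, 11 had a count and 5 (Itga7, Itgad, Itgax, Itgb6 and Itgb8) were listed at 0 in both libraries. Itga2b, which encodes CD41, was the highest at 51.4 ± 19.3 CPM (SD, n = 2), in 56 of 87 cells, although the sort had left out cells with CD41 on their surface. Itga3, a laminin receptor subunit, was at 28.1 ± 3.14 CPM in 43 cells, and the collagen receptor subunit Itga2 at 17.7 ± 0.395 CPM in 19 cells. The rest were rare, with Itga10 in 11 cells, Itga8, Itgb7 and Itgal in 7 each, Itga11 in 4, Itgb4 in 2, and Itgae and Itgam in 1 each. The leukocyte alpha partners of Itgb2 are among these last genes. None of the 19 cells with an Itgb2 count had a count of Itgal, Itgam, Itgax or Itgad. As Itgal had a count in only 7 cells and Itgam in 1, the lack of a shared cell says little about pairing. Itga2b had a count in 16 of the 19 (7 of 9 and 9 of 10), and in 16 of 34 and 24 of 34 cells without Itgb2. Depth differed as well, with medians of 285167 (replicate 1) and 276859 (replicate 2) for cells with Itgb2. Those without it had 98687 and 231792. The part of depth in these shares was not tested. Of the 19 cells with Itgb2, 1 had a count of the pan-leukocyte gene Ptprc and 2 of the macrophage gene Csf1r. The myeloid gene Lyz2 had a count in 6 of 9 of them in replicate 1 and 3 of 10 in replicate 2. It had one in 17 of 34 and 8 of 34 cells without Itgb2. A pair of Itgb2 with its leukocyte partners was thus seen in 0 of 87 cells, which allows up to 3.45% by the same limit of 3 in 87 cells.

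At the level of the single cell, a median of 6 members had a count in replicate 1 (range 1 to 9) and 7 in replicate 2 (4 to 9), and no cell held all 10. Of 8 known alpha-beta pairs among the members, the median cell held both subunits of 4 in replicate 1 and 5 in replicate 2. After thinning the medians were 3 and 4 members and 2 and 3 pairs, and 10 of 42 and 3 of 44 cells held no pair. Itgb1 made up 73.4% and 89.1% of the beta counts of the members. It was the highest beta gene in 32 of 43 and 42 of 44 cells, and another beta gene was higher in 8 and 2 cells. Itgb1 had a count in 40 of 43 and 44 of 44 cells, so few cells with any alpha subunit could lack it. Of the cells with Itga5, Itga6 or Itga9, 1, 3 and 3 lacked it in replicate 1 and none did in replicate 2. All 55 cells with Itga4 had it. The 3 cells of replicate 1 without Itgb1 all had counts of Itga6 and Itga9, so these numbers do not show that partners occur together. Among these 6 alpha members the highest per cell was Itga5 in 14 and 20 cells of replicates 1 and 2, and Itga6 in 13 of each. Itga9 led in 7 and 4 cells, Itga4 in 6 and 2, Itgav in 2 and 3, and Itga1 in 0 and 2. The alpha gene at the top thus varied from cell to cell while Itgb1 was shared by nearly all of them.

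Levels of partners moved together only weakly across cells. Over 43 and 44 cells, which share a library and differ in depth, Spearman's correlation of Itga5 with Itgb1 was 0.31 and 0.28 by CPM and 0.36 and 0.22 after thinning. The 90th percentile of the correlation of all genes with Itgb1 was 0.18 and 0.21, so Itga5 lay above it in each library. Itgav with Itgb1 gave 0.12 and 0.31, and Itga4 with Itgb1 gave 0.09 and -0.23, of opposite sign. Itga6, Itga9 and Itga1 with Itgb1 lay between -0.10 and 0.15. Itgav showed 0.11 and 0.01 with Itgb3, and 0.08 and -0.16 with Itgb5, each within the 10th to 90th percentiles of all genes. Among all 45 pairs of members, 18 were positive in both libraries, 5 negative in both and 22 of opposite sign, and only Itga5 with Itgb1 and Itga4 with Itgb5 exceeded 0.2 in both. After thinning, Itga4 with Itgb5 gave 0.08 and 0.00, and only Itga5 with Itgb1 stayed above 0.2 in both. Outside the members, Itga2b had a count in 23 of 43 and 33 of 44 cells, and Itgb3 in 29 and 32. These subunits of the platelet integrin were found together in 17 and 26 cells, with correlations of 0.13 and 0.28. Over all genes, the correlation with Itgb3 had medians of 0.13 and 0.06 and 90th percentiles of 0.32 and 0.27. As each gene was in many cells, the shared cells do not show that the 2 occur together. Itga3 with Itgb1 gave -0.08 and 0.50.

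**Figure D3:**
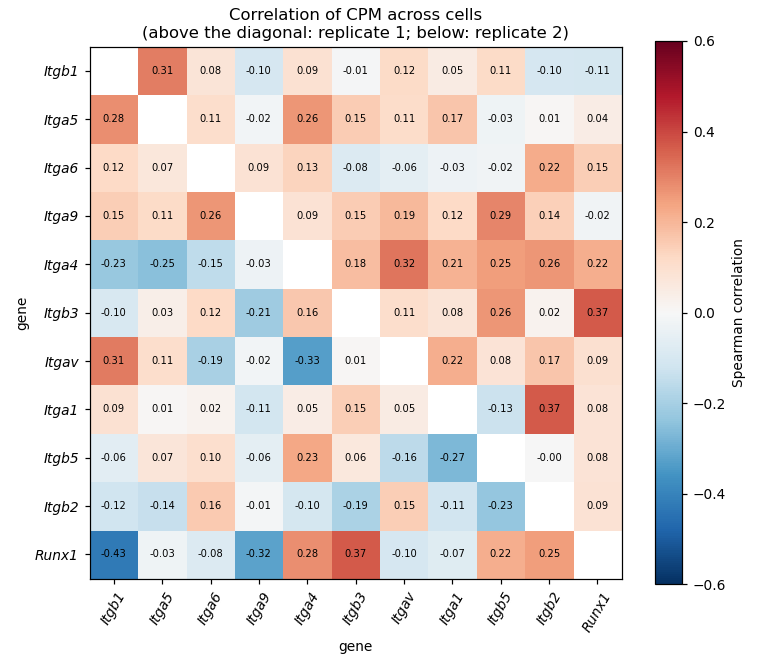
Spearman correlation of CPM across cells for each pair of integrin subunit genes and with Runx1, coloured from -0.6 (blue) to 0.6 (red), with replicate 1 (43 cells) above the diagonal and replicate 2 (44 cells) below it. Itga5 with Itgb1 and Itgb3 with Runx1 are positive on both sides, and Itgb1 with Runx1 is -0.11 and -0.43.

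By the likeness of their pattern, taken as the smaller of the 2 within-library correlations over 4125 genes with a count in at least 20 cells of each library, the genes nearest to Itgb1 were Tmem2 (0.38 and 0.55), Stmn2 and Mfng. Nearest to Itga5 were Kdelr2 (0.49 and 0.48), Prkch and Plagl1. Nearest to Itga6 were Procr (0.40 and 0.37), which encodes the CD201 used in the gate, then Hspg2, the basement membrane proteoglycan perlecan, and St8sia4. Nearest were Anxa2, Mesdc1 and 4932438A13Rik to Itga9, Nubp2, Ifitm1 and Siva1 to Itga4, Eri3, Usp5 and Rb1cc1 to Itgav, and Slc35a4, Zkscan17 and Hspe1 to Itgb3. Itga1, Itgb2 and Itgb5 had counts in too few cells to be compared in this way. The named genes are the highest of 4125 in these same cells, so their values are raised by the selection. They were not tested or repeated after thinning.

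Runx1, the transcription factor required for hemogenic endothelium to form blood cells, served to order the cells within each library. Its level was 300.4 and 136.5 CPM in the libraries of replicates 1 and 2, and 68 of 87 cells had at least 1 count of it. Cells were split at the median Runx1 CPM of their library. The highest cell below the split held 52.2 CPM and the lowest above it 52.7 CPM in replicate 1, and 8.85 and 11.2 CPM in replicate 2. Counts were summed over the 21 Runx1-high and 22 Runx1-low cells of replicate 1 and the 22 and 22 of replicate 2, and these 4 sums were compared with edgeR's quasi-likelihood test with the library in the model. Runx1-high cells were deeper. Their median depth was 260240 counts where that of Runx1-low cells was 95376 in replicate 1, and 271734 where it was 213444 in replicate 2. All 3 collagen-rich cells were Runx1-low. Where they were left out of this comparison, the split was made again at the median of the remaining cells. That moved the lowest Runx1-high cell of each library to the Runx1-low group. Endothelial markers were lower in the Runx1-high sums, with summed levels of 1304 against 2853 CPM in replicate 1 and 2111 against 3681 CPM in replicate 2, and 3 of the 7 (Cdh5, Kdr and Tek) passed the test. The part that depth, the collagen-rich cells or the endothelial share play in the values below was not tested, beyond the values given.

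None of the 10 members passed an adjusted p of 0.05, where 1.56% of the 10629 genes tested did (166 genes, 40 higher and 126 lower in Runx1-high cells). In data simulated from these sums, the test recovered 71 of 200 changed genes at a log2 change of 2 and 190 of 200 at 4. The changed genes were drawn from the more abundant ones, and smaller changes were not simulated. A member that did not pass may therefore still differ. Without the library as a block in the model, 1 gene passed. At an unadjusted p of 0.05, 1 of 10 members passed, against 8.67% of all genes. With DESeq2, 1 member passed the adjusted threshold. The median log2 change of the members was -0.34, against 0.07 over all genes tested, and 3 were higher and 7 lower.

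The member with the smallest p was Itgb1. Its level was 206.8 CPM in Runx1-high and 419.2 CPM in Runx1-low cells of replicate 1, and 368.0 and 788.9 CPM in those of replicate 2, 2.03-fold and 2.14-fold higher in the low cells. Single cells overlapped widely: in replicate 2 the Runx1-high cells ran from 35.1 to 1154 CPM with a median of 363.9, and the Runx1-low cells from 82.0 to 1607 CPM with a median of 700.3. The log2 change was -1.09 (SE 0.33, adjusted p 0.0538 by edgeR's quasi-likelihood test), just above the threshold, and so it did not pass. It passed with DESeq2 (adjusted p 0.0130) and with size factors by relative log expression (edgeR, adjusted p 0.0348). Without the 3 collagen-rich cells, and with the split made again, it also passed (log2 change -1.31, edgeR adjusted p 0.0188). Those cells held 1.22% of the Itgb1 counts. The cells that changed group held 1142 CPM of Itgb1 in replicate 1 and 929.7 CPM in replicate 2, and their part was not tested. Itgb1 did not pass when each cell gave the same number of counts (log2 change -0.49, edgeR adjusted p 0.749). Across cells the correlation of Itgb1 with Runx1 was -0.11 and -0.43, where the 10th percentile of all genes was -0.09 and -0.15. After thinning it was -0.04 and -0.41, against -0.17 and -0.19, below that percentile in replicate 2 and above it in replicate 1.

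Itga4 and Itgb3 were the members with the higher estimates in Runx1-high cells, apart from the sparse Itgb2. Itga4 was at 112.3 against 52.3 CPM in replicate 1 and 55.1 against 26.7 CPM in replicate 2 (log2 change 1.04, SE 0.75, edgeR adjusted p 0.846). In replicate 1 a single cell held 54.9% of the Itga4 counts of the Runx1-high cells, and without the top cell of each group the levels were 55.7 against 26.0 CPM. After thinning, Itga4 had a count in 7 of 21 and 8 of 22 Runx1-high cells, against 4 of 21 and 8 of 22 Runx1-low cells. Its correlation with Runx1 was 0.22 and 0.28 by CPM, but 0.16 and -0.05 after thinning. With depth the correlation of Itga4 was 0.40 and 0.33, and the part of depth was not tested. Itgb3 had a count in 19 of 21 and 20 of 22 Runx1-high cells against 10 of 22 and 12 of 22 Runx1-low cells. After thinning these became 9 of 21 and 6 of 22 against 3 of 21 and 4 of 22. Its correlation with Runx1 was 0.37 and 0.37, just above the 90th percentile of all genes (0.33 and 0.35), but 0.16 and 0.17 after thinning, within the range of other genes. The summed Itgb3 levels went opposite ways, 55.0 against 70.0 CPM in replicate 1, where 1 Runx1-low cell held 57.7% of the counts of its group, and 58.0 against 8.62 CPM in replicate 2 (log2 change 1.15, SE 1.00, edgeR adjusted p 0.915). Of 7 megakaryocyte markers, which include Itga2b, Gp1bb, Ppbp and Treml1 were listed at 0 in every cell, and the summed level of the list was 14.2 against 171.1 CPM in replicate 1 and 128.2 against 48.8 CPM in replicate 2. Their part in the Itgb3 levels was not tested.

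The leading alpha subunits gave small estimates. Itga6 was at 172.4 against 180.3 CPM and 221.9 against 224.0 CPM in Runx1-high and Runx1-low cells of replicates 1 and 2 (log2 change -0.07, SE 0.41). Itga5 was at 168.2 against 232.6 and 217.3 against 279.4 CPM (log2 change -0.45, SE 0.39), and Itga9 at 97.4 against 91.7 and 108.8 against 210.1 CPM (log2 change -0.47, SE 0.50). For Itga5 the levels were lower in Runx1-high cells of both libraries, but by about 1 SE. None passed an adjusted p of 0.05.

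The sparse members gave estimates with wide errors. Itgav was at 18.9 against 23.0 and 9.34 against 62.5 CPM (log2 change -1.55, SE 1.36). In Itgav and Itgb5 the collagen-rich cells had a large share, 17.3% and 30.3% of all counts of the gene, with Itgb5 at 0, 87.7 and 399.1 CPM in these 3 cells. Of the Itga1 counts they held 0.783%. Without these cells, and with the split made again, the log2 change was -1.08 (SE 1.66) for Itgav and -2.69 (SE 2.93) for Itgb5. For Itga1 it was -3.41 (SE 1.504). With these cells it had been -3.21 (SE 2.16) for Itgb5 and -0.23 (SE 2.98) for Itga1, and none passed in either case. The replicate 1 cell that changed group held 74.3% of the Itga1 counts of the Runx1-high cells there, and its part was not tested. Itgb5 was at 0.521 CPM (3 counts) against 74.4 CPM in replicate 1, and at 14.9 against 12.5 CPM in replicate 2. Itga1 was opposite in the libraries, at 18.2 against 0.946 CPM (3 counts) in replicate 1 and 4.08 against 72.9 CPM in replicate 2. Itgb2 was at 11.8 against 20.8 and 18.9 against 6.07 CPM, with 1 cell holding over 93% of the counts in 3 of the 4 groups.

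**Figure D4:**
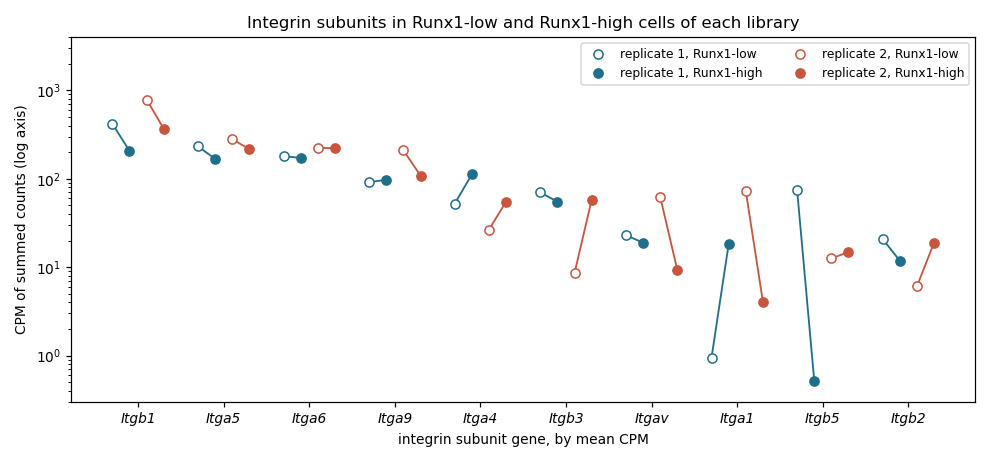
Level of each integrin subunit gene in CPM of summed counts, on a log axis, in Runx1-low cells (open circles) and Runx1-high cells (filled circles) of replicate 1 (blue) and replicate 2 (red), joined by a line within a library. Itgb1 is lower and Itga4 higher in the Runx1-high sum of both libraries, the points of Itga6 nearly coincide, and Itga1, Itga9, Itgb2, Itgb3 and Itgb5 slope opposite ways in the 2 libraries, none of them past the test.

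Of the other subunit genes, 5 could be tested and none passed by edgeR's quasi-likelihood test; only Itga3 and Itga2b had an unadjusted p under 0.05. Itga3 was at 1.74 against 82.3 CPM in replicate 1 and 12.4 against 46.1 CPM in replicate 2 (log2 change -3.68, SE 1.30, edgeR adjusted p 0.156), and it passed with DESeq2. Itga2b was at 13.0 against 159.5 and 30.8 against 48.2 CPM (log2 change -2.15, SE 0.83, edgeR adjusted p 0.250).

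Of the ligand genes of these receptors, several passed the test, all lower in Runx1-high cells. Over all 10629 genes tested, 126 passed as lower and 40 as higher in Runx1-high cells. Of 29 ligand genes listed, 21 could be tested, and 8 were lower and none higher in Runx1-high cells, with a median log2 change of -1.40. The 8 were the basement membrane genes Col4a1, Col4a2, Nid1 and Lamb1, the fibronectin gene Fn1, the fibrillin gene Fbn1, and Col1a1 and Col1a2. Col4a1, the most abundant ligand at 1027 ± 228.4 CPM (SD, n = 2), was at 621.9 against 1306 CPM in replicate 1 and 634.3 against 2013 CPM in replicate 2 (log2 change -1.40, SE 0.27, edgeR adjusted p 7.55e-05). Fn1, the ligand of the Itga5 and Itga4 receptors, was at 548.6 against 939.8 and 374.6 against 1037 CPM (log2 change -1.16, SE 0.30, edgeR adjusted p 0.0111). Nid1, which ties laminin to collagen IV, changed by -2.21 (log2, SE 0.43), Lamb1 by -2.51 (SE 0.57), Col4a2 by -1.55 (SE 0.31) and Fbn1 by -1.84 (SE 0.54). Col1a1 and Col1a2 came mostly from the collagen-rich cells, 3 cells holding 91.9% of all Col1a2 counts. Without those cells, and with the split made again, 6 of 21 ligands passed. They were Col4a1, Col4a2, Nid1 and Lamb1 as before, with Hspg2 and Icam2 in place of Fn1, Fbn1 and the type I collagen genes. With summed counts from thinned cells, 3 of 20 passed (Col1a1, Col1a2 and Col4a1), and with no replicate block 1 of 21 (Col1a1). Icam2, a ligand of the leukocyte integrins, was among the 5 highest ligands at 421.0 ± 253.0 CPM (SD, n = 2).

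Among 36 adaptors and regulators, 33 were tested, with a median log2 change of -0.48. Of these 33, 1 was lower and none higher in Runx1-high cells, where 1.56% of all 10629 genes tested passed in either direction. The gene that passed was Parva, which encodes alpha-parvin, the actin-binding partner of integrin-linked kinase. Parva was at 25.7 against 195.4 CPM in replicate 1 and 34.2 against 187.5 CPM in replicate 2 (log2 change -2.72, SE 0.56, edgeR adjusted p 0.000291), a call lost with sums of thinned cells (log2 change -2.59, edgeR adjusted p 0.167) and with no replicate block (adjusted p 0.487). The 5 highest adaptors by mean level were Rasip1, Tln1 (talin), Rap1b, Flna (filamin A) and Actn4, at 322.9, 317.8, 281.6, 279.9 and 218.9 CPM, and none of them passed. Flna came nearest, with a log2 change of -1.19 (SE 0.36, edgeR adjusted p 0.0571). It passed with DESeq2, with size factors by relative log expression and with a Runx1 count against none after thinning, but had an adjusted p of 0.827 with sums of thinned cells. Tgfb1i1, another adaptor, passed without the collagen-rich cells and under no other alternative. The talin gene Tln1 had a log2 change of 0.11 (SE 0.36).

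**Figure D5:**
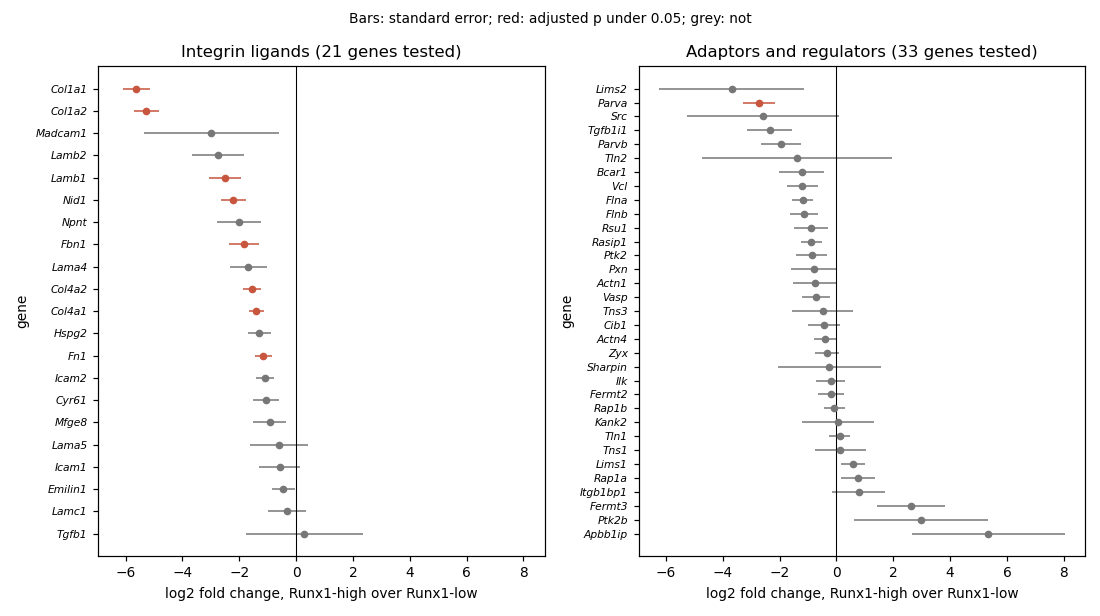
Log2 fold change between Runx1-high and Runx1-low cells on the x axis for each tested ligand gene (left, 21 genes) and adaptor or regulator gene (right, 33 genes), with standard errors as bars and genes with an adjusted p under 0.05 in red. The 8 red ligand genes and Parva lie left of 0, and most grey genes have bars that reach near or across it.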

How the data were processed

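The deposited tables held UMI counts per gene and cell, which the authors made from modified STRT-seq reads by splitting them by cell barcode, trimming, aligning to mm10 with HISAT2 2.1.0 and counting with HTSeq, without normalization. Lists of cell barcodes were not used. CPM were computed per cell or from counts summed over a library. Cells were thinned to 20000 counts without replacement. Genes were tested on 4 sums (library by Runx1 group) with edgeR 4.0.16 (filterByExpr, TMM, quasi-likelihood, library as a block) in R 4.3.3, leaving Runx1 out, with Benjamini-Hochberg adjustment over all genes tested; the script was tested on simulated data. DESeq2 1.42.0 was an alternative. Correlations across cells are Spearman's and carry no test. Intervals of shares are exact binomial, the limit for a count of 0 is 3 of the total, and both cover counting error only; free RNA was not modelled. With 4 sums and the library as a block, almost no residual degrees of freedom were left per gene, so edgeR took the spread of a gene partly from all genes tested. The p-values set the difference between Runx1-high and Runx1-low sums against this shared spread over 2 libraries, not against the variation of that gene alone. As the labels name no separate litters, the variation between the libraries may be technical.

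Members and gene lists were chosen with earlier results of these data known. Named were all members, other subunits with a count, the 5 highest and all called ligands and adaptors, and the 3 genes most alike to each member. Genes passing in alternatives alone, Hspg2 and Tgfb1i1 among them, and Vcam1 were named after their values were seen. Transcript lengths came from GRCm38. Doublets were not called, since cells were picked singly.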

Additional observations from a re-analysis of the deposited data

How the results depend on the processing

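The library entered the model as a replicate block. With no replicate block, 1 gene of all those tested was called in place of 166, and 0 members. The pairing is given by the design, since both sums of a pair are cells of the same library. DESeq2 called 294 genes, and sums of thinned cells 23. The count of members called was 1 in place of 0 with DESeq2, with size factors by relative log expression and without the collagen-rich cells (split made again), each time Itgb1, and 0 under the other 6 alternatives. Estimates not past the threshold changed sign for Itga1 (0.18 with thinned sums) and Itga6 (0.15 with Runx1 count against none after thinning). With 1 library left out there is no test; the log2 change then ranged from -3.86 to 3.31 for Itga1, -0.94 to 0.086 for Itga9, -0.77 to 1.49 for Itgb2, -0.34 to 2.62 for Itgb3 and -5.63 to 0.23 for Itgb5, so signs differed between the libraries, while the other 5 members kept theirs.

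A count was found in over 50% of cells for 7 members. This became 4 at 2 or more counts, 3 at 10 or more and 4 after thinning, and was 7 in each library alone, so the number of subunits called present depends on depth. Members correlating positively with Runx1 in both libraries numbered 4, and 2 after thinning, and single libraries gave 4 to 8. Positive pairs numbered 5 of 8, with 4 to 7 under the alternatives. With 2 libraries, one group and no other tissue, no level can be compared with that of another condition.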
